A study of Mus musculus with 6 samples.

Results

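The genes described here are 7 chromatin regulators grouped as acting against Polycomb repression. They are the H3K27 demethylase genes Kdm6a and Kdm6b and the KMT2 methyltransferase family genes Kmt2a, Kmt2b, Kmt2c, Kmt2d and Kmt2e. They were chosen by gene symbol, and all 7 were among the 24453 symbols in the count files and among the 14700 genes tested. RNA was sequenced from cells of the interfollicular epidermis of newborn back skin, sorted as EpCAM-positive, Sca1-positive and high in α6-integrin. The 3 Eed cKO libraries came from mice labelled Eed-/- and the 3 Control libraries from mice labelled Control, all at postnatal day 0. The labels give neither the Cre driver, the deleted exons nor the alleles of the Control mice, and they do not say that libraries of a group came from separate animals, so the p-values measure only the spread between libraries, which may be technical in part.

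The Eed protein is needed for Polycomb repressive complex 2 (PRC2) to methylate lysine 27 of histone H3 (H3K27), a mark that keeps developmental genes silent. The KDM6 enzymes remove this methylation, and the KMT2 enzymes, relatives of the fly Trithorax protein, methylate lysine 4 of the same histone at promoters and enhancers, a mark of active genes. KMT2 enzymes work in large assemblies that share the WRAD core (WDR5, RBBP5, ASH2L and DPY30). MLL5, the product of Kmt2e, is an exception, since its methyltransferase activity is doubted and it is not known to form such a complex. The comparison asks whether transcripts of the opposing enzymes differ when Eed is deleted.

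Polycomb complexes are known to bind CpG-rich promoters, so 2 promoters are shown that span the range of CpG content among those matched. RefSeq promoter sequences (GRCm38.p6, 250 bases before to 50 bases after the start) matched 4 of the 7 symbols, Kdm6a, Kmt2a, Kmt2c and Kmt2d. Each window holds 300 bases, and the motif searched was CG, which reads the same on both strands. The Kmt2c window (chr5:25498734-25499033, minus strand) held 56 CG and the Kdm6a window (chrX:18162325-18162624, plus strand) held 21, against 36 for Kmt2a and 27 for Kmt2d. The median over 27025 promoters was 7. A window with at least as many CG was found for 0.204% of all promoters in the case of Kmt2c, 6.02% for Kmt2a, 15.4% for Kmt2d and 25% for Kdm6a. Binding at these promoters was not measured here. The sequences run 5′ to 3′ on the strand of the gene, with each CG in capitals.
Kmt2c: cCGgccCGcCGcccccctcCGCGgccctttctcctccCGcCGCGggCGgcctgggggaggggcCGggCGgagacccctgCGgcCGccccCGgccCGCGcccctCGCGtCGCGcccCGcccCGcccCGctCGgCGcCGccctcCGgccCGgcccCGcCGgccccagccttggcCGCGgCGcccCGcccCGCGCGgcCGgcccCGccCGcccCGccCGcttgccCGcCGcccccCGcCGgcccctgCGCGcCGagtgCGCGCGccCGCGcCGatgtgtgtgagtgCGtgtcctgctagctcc
Kdm6a: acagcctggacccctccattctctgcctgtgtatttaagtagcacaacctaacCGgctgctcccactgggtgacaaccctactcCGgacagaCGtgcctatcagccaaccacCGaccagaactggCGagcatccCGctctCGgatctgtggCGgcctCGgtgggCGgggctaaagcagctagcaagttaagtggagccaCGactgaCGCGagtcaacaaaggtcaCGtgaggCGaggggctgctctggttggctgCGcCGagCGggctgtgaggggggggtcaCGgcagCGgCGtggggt

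No member passed the test. Of the 7 genes, 0 rose and 0 fell in Eed cKO past a threshold of 0.05 (edgeR quasi-likelihood test, Benjamini-Hochberg adjustment over all genes tested), where 4.21% of all genes tested were called. At an unadjusted p under 0.05 there were 2 members, Kmt2a and Kmt2e, where 14.9% of all genes tested had such a value. DESeq2 and limma-voom also called 0 of the 7, where they called 7.04% and 4.05% of all genes. All 7 fitted log2 fold changes (Eed cKO over Control) were negative, from -0.50 to -0.03 with a median of -0.40, against a median of -0.01 over all genes tested, of which 51.3% were negative. The median of the 7 was -0.16 without Control library 1 and -0.23 without Eed cKO library 2, and -0.36 to -0.46 without any other single library, and with the Xist level as a covariate it was -0.24. The sign of Kdm6b turned in 4 of the 16 alternatives tried, so its direction is not settled. That no member was called does not show equal levels. Unadjusted 95% intervals of the Eed cKO level were 54.4% to 91.9% of Control for Kmt2a and 63.8% to 107% for Kmt2b. They were 60.0% to 105% for Kmt2c, 55.0% to 105% for Kmt2d and 60.1% to 93.6% for Kmt2e. The groups were apart, with every Eed cKO library below every Control library, for Kmt2a and Kmt2e, and 9.22% of all genes tested were apart in that direction. The numbers below are counts-per-million (CPM) values scaled by TMM, a method that corrects for differences in RNA composition between libraries.

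**Figure D1:**
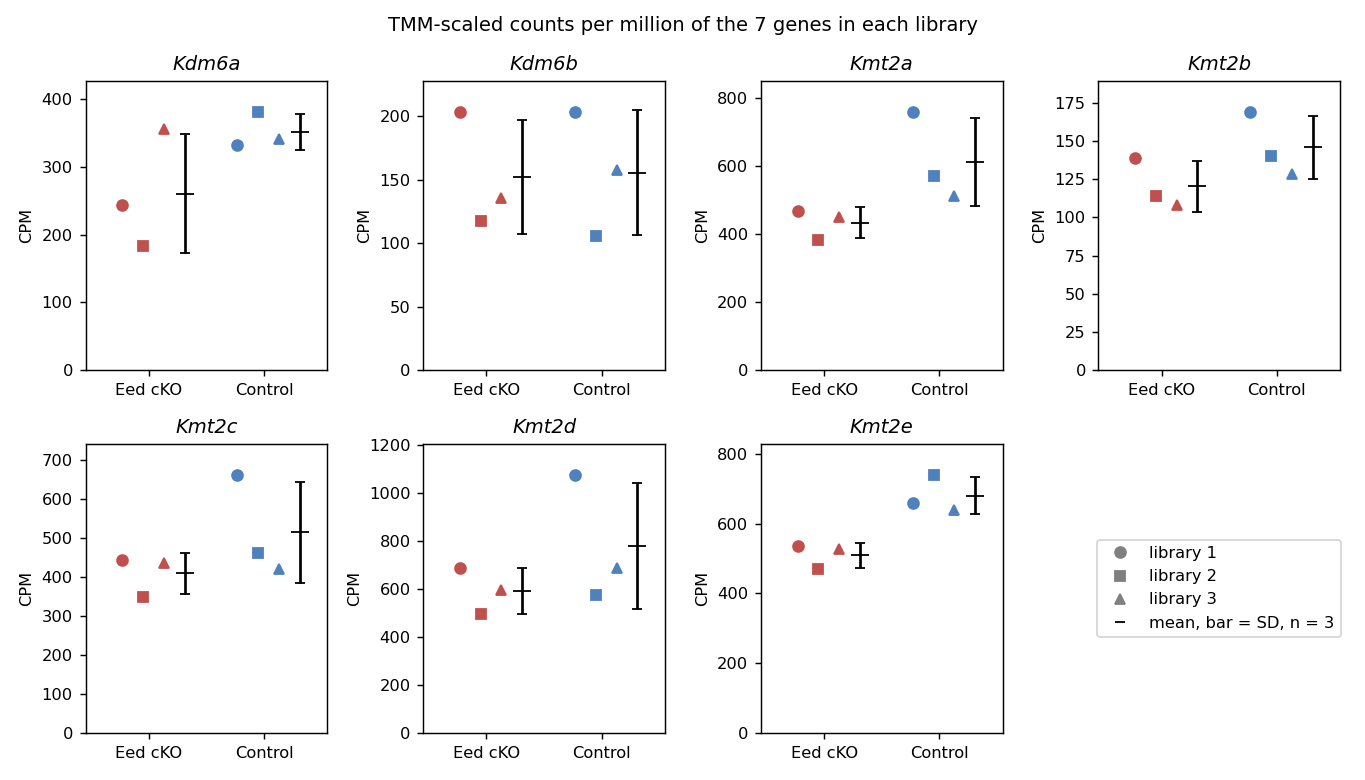
TMM-scaled CPM of the 7 genes in each library, with symbols for library number and a black line and bar for the mean and SD of 3 libraries. Eed cKO libraries lie wholly below Control libraries for Kmt2a (up to 468 against at least 511 CPM) and Kmt2e (up to 535 against at least 639 CPM), and the groups overlap for the other 5 genes.

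Total counts were 20998149 to 27447679 in Eed cKO and 25481306 to 29998531 in Control libraries. Eed itself averaged 33.3 ± 3.90 CPM in Eed cKO and 46.4 ± 6.11 CPM in Control (SD, n = 3 each). It was not called (log2 fold change -0.48, edgeR unadjusted p 0.0279 and adjusted p 0.252). Every Eed cKO library (29.2 to 37.0 CPM) was below every Control library (41.1 to 53.1 CPM), as for 9.22% of all genes tested. The files count the whole gene, and the deleted exons are not known here, so these values say little about the deletion. Basal keratinocyte markers, a list of 8 genes that includes those of the 3 sorted antigens, summed to 28803 to 37731 CPM in Eed cKO and 32860.1 to 39010.2 CPM in Control, and of the 8 tested 1 rose and 0 fell. Suprabasal markers summed to 4903 to 7771 CPM in Eed cKO against 3119.9 to 4169.8 CPM in Control, ranges that were apart, with 1 of 6 higher. Merkel cell markers summed to 7.75 to 14.1 CPM in Eed cKO and 0.195 to 1.82 CPM in Control, and 2 of the 4 tested rose. Hair follicle markers summed to 699.96 to 794 CPM in Eed cKO and 429 to 777 CPM in Control, with 1 of 6 higher. Immune markers summed to 47.1 to 281 CPM in Eed cKO and 107 to 384 CPM in Control, with 1 of 5 tested lower. Melanocyte, fibroblast and endothelial lists overlapped between groups with 0 called, and no list had a gene without counts in all libraries. The share of counts on the ribosomal RNA precursor Rn45s was 6.78 to 7.26% in Eed cKO and 2.18 to 5.24% in Control. The part of these differences in the results below was not tested. In such bulk RNA, fewer cells of a type and less RNA per cell cannot be told apart.

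Kdm6a (chromosome X, 18162575 to 18279936, plus strand, GRCm38) encodes UTX, an H3K27 demethylase that is also a subunit of the KMT2C and KMT2D complexes. It had 243, 183 and 355 CPM in Eed cKO libraries 1, 2 and 3, against 332, 381 and 341 CPM in Control libraries 1, 2 and 3. Eed cKO libraries 1 and 2 were below every Control library, whereas Eed cKO library 3 lay within the Control range. The mean was 260.4 ± 87.4 CPM in Eed cKO and 351 ± 26.0 CPM in Control (SD, n = 3 each), with a log2 fold change of -0.43 ± 0.21 (SE; edgeR adjusted p 0.366). The unadjusted 95% interval of the level in Eed cKO ran from 54.3% to 101% of that in Control. The coefficient of variation of Kdm6a was 33.5% among Eed cKO libraries and 7.40% among Control libraries.

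Kdm6a escapes X inactivation in mice and is known to be higher in female than in male tissues, and the libraries were not alike in sex-linked transcripts. Xist, the RNA that coats the inactive X, was at 5429.6, 8.55 and 6887 CPM in Eed cKO libraries 1, 2 and 3 and at 7757, 5624 and 5297 CPM in Control libraries 1, 2 and 3. Eed cKO library 2, the one lowest in Kdm6a, was the exception. The same library held the Y-linked genes, with 40.4 CPM of Uty, the Y-linked relative of Kdm6a, against at most 0.145 CPM in any other library. Ddx3y, Eif2s3y and Kdm5d were at 121, 97.2 and 81.4 CPM there and at most 0.387 CPM elsewhere. Summed with Uty, Kdm6a came to 243, 223 and 355 CPM in Eed cKO libraries 1, 2 and 3, against 332, 381 and 341 CPM in the Control libraries. Without Eed cKO library 2 the log2 fold change of Kdm6a was -0.22 (edgeR adjusted p 0.771), and with the Xist level as a covariate it was -0.23 (edgeR adjusted p 0.749). Since 1 library alone is low in Xist, the covariate nearly repeats leaving that library out and is no second check. The labels give no sex, and for Kdm6a sex and genotype can be told apart only in part here. Without Eed cKO library 3 it was -0.72 (edgeR adjusted p 0.0880), still not called.

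Other X-linked genes that escape inactivation did not share one pattern in that library. Kdm5c, an H3K4 demethylase, was at 218, 151 and 201 CPM in Eed cKO libraries 1, 2 and 3 and at 206, 173 and 202 CPM in the Control libraries, lowest in Eed cKO library 2. Eif2s3x was lowest there too, at 13.1, 10.2 and 15.9 CPM in Eed cKO and 13.9, 13.5 and 12.8 CPM in Control. Ddx3x was not, with 941, 1169 and 1078 CPM in Eed cKO and 1027, 929.7 and 1172 CPM in Control. None of the 3 was called (log2 fold changes -0.03, -0.04 and 0.03; edgeR adjusted p 0.972, 0.975 and 0.971).

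**Figure D2:**
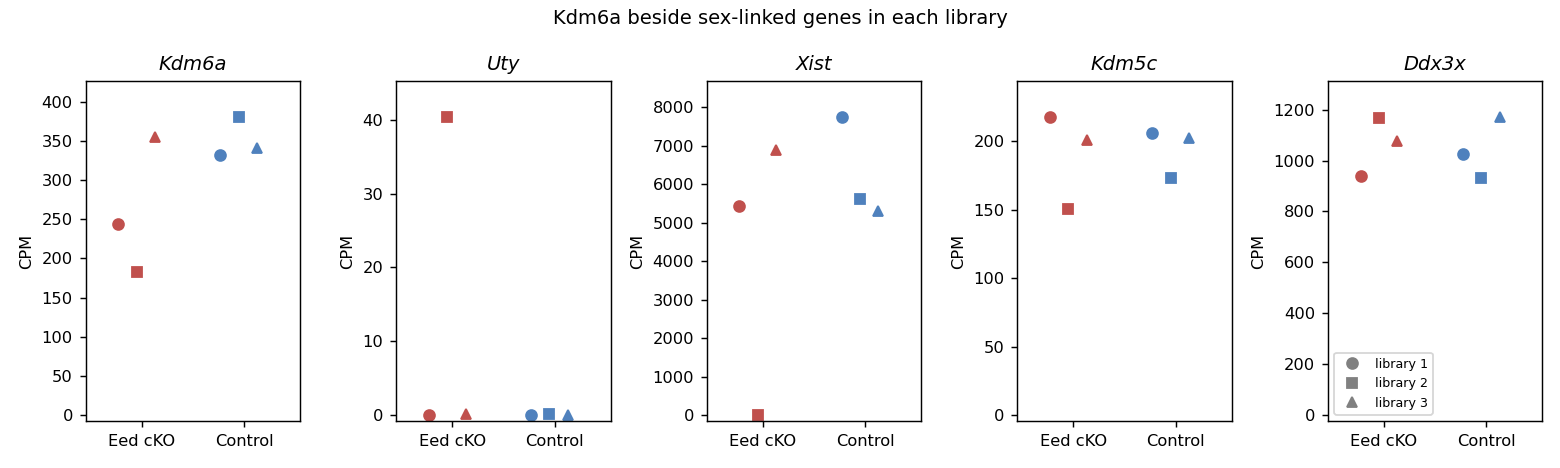
CPM of Kdm6a, Uty, Xist, Kdm5c and Ddx3x in each library, with symbols for library number and a separate linear axis for each gene. Eed cKO library 2 (square) has 8.55 CPM of Xist and 40.4 CPM of Uty, and its Kdm6a, at 183 CPM, is the lowest of the 6 libraries.

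Kdm6b (chromosome 11, 69398508 to 69413675, minus strand) encodes JMJD3, the inducible H3K27 demethylase, which in human keratinocytes is known to act at differentiation genes. It had 203, 118 and 135 CPM in Eed cKO libraries 1, 2 and 3, against 203, 106 and 158 CPM in Control libraries 1, 2 and 3. The groups overlapped almost entirely, and the library numbered 1 was the highest in both. The means were 152 ± 45.1 CPM in Eed cKO and 156 ± 49.0 CPM in Control (SD, n = 3 each). The fitted log2 fold change, -0.03 ± 0.24 (SE), had an edgeR adjusted p of 0.977, and the unadjusted 95% interval, 67.9% to 140.5% of the Control level, leaves room for a moderate change in either direction. Leaving out 1 library moved the value between -0.30 (without Eed cKO library 1) and 0.20 (without Control library 1). Of its exonic bases, 4.11% are shared with the opposite-strand gene Kdm6bos.

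Kmt2a and Kmt2b encode MLL1 and MLL2, which with menin methylate H3K4 at promoters, MLL1 at Hox genes among others. Kmt2a (chromosome 9, 44803355 to 44881296, minus strand) had 468, 383 and 449 CPM in Eed cKO libraries 1, 2 and 3, against 758, 569 and 511 CPM in Control libraries 1, 2 and 3. Every Eed cKO library was below every Control library. The means were 433 ± 44.6 CPM in Eed cKO and 613 ± 129 CPM in Control (SD, n = 3 each). The fitted log2 fold change of -0.50 ± 0.18 (SE) had an unadjusted p of 0.0132 and an edgeR adjusted p of 0.160, from the model across all genes. The value was -0.32 without Control library 1, which was the highest, and between -0.41 and -0.62 without any other single library, and Kmt2a was called in none of these.

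Kmt2b (chromosome 7, 30568858 to 30588726, minus strand) had 139, 114 and 108 CPM in Eed cKO libraries 1, 2 and 3, against 169, 140.1 and 129 CPM in Control libraries 1, 2 and 3. The highest Eed cKO library exceeded the lowest Control library, so the groups overlapped. With a log2 fold change of -0.28 ± 0.17 (SE), its edgeR adjusted p was 0.517. Without Control library 1 it was -0.16.

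Kmt2c and Kmt2d encode MLL3 and MLL4, the enhancer H3K4 methyltransferases whose complexes hold UTX. Kmt2c (chromosome 5, 25271798 to 25498783, minus strand) had 443, 348 and 435 CPM in Eed cKO libraries 1, 2 and 3, against 661, 460.4 and 421 CPM in Control libraries 1, 2 and 3. Control library 1 was far above the rest, and 2 of the 3 Eed cKO libraries were higher than Control library 3. The log2 fold change of -0.33 ± 0.19 (SE; edgeR adjusted p 0.464) was -0.11 without Control library 1 and -0.22 without Eed cKO library 2.

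Kmt2d (chromosome 15, 98831669 to 98871204, minus strand) had 685, 496 and 595 CPM in Eed cKO libraries 1, 2 and 3, against 1076, 576 and 687 CPM in Control libraries 1, 2 and 3. Control library 1 again stood highest, and the remaining 5 libraries were interleaved. The means were 592 ± 94.8 CPM in Eed cKO and 779.6 ± 262 CPM in Control (SD, n = 3 each), the widest Control spread of the 7 genes, with a coefficient of variation of 33.7%. The log2 fold change of -0.40 ± 0.22 (SE; edgeR adjusted p 0.437) was -0.10 without Control library 1.

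Kmt2e (chromosome 5, 23434441 to 23504235, plus strand) encodes MLL5, a SET-domain protein not known to form a KMT2 complex, whose methyltransferase activity is doubted. It had 535, 469 and 526 CPM in Eed cKO libraries 1, 2 and 3, against 661, 740.3 and 639 CPM in Control libraries 1, 2 and 3. The groups were apart, and the coefficients of variation, 7.04% in Eed cKO and 7.87% in Control, were low in both. The means were 509.9 ± 35.9 CPM in Eed cKO and 679.8 ± 53.5 CPM in Control (SD, n = 3 each), with a log2 fold change of -0.42 ± 0.15 (SE), an unadjusted p of 0.0148 and an edgeR adjusted p of 0.171 from the model across all genes. Leaving out any 1 library kept the value between -0.46 and -0.33, the narrowest span of the 7 genes, and never brought it past the threshold. Of the exonic bases of Kmt2e, 9.31% are shared with Srpk2 on the opposite strand, which was at 157 ± 9.09 CPM in Eed cKO and 144 ± 4.40 CPM in Control (SD, n = 3 each; log2 fold change 0.13, edgeR adjusted p 0.800). Without a known strand setting the reads of that overlap cannot be assigned. Kmt2a and Kmt2c share 2.27% and 1.35% of their exonic bases with opposite-strand genes, and Kdm6a, Kmt2b and Kmt2d share none.

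**Figure D3:**
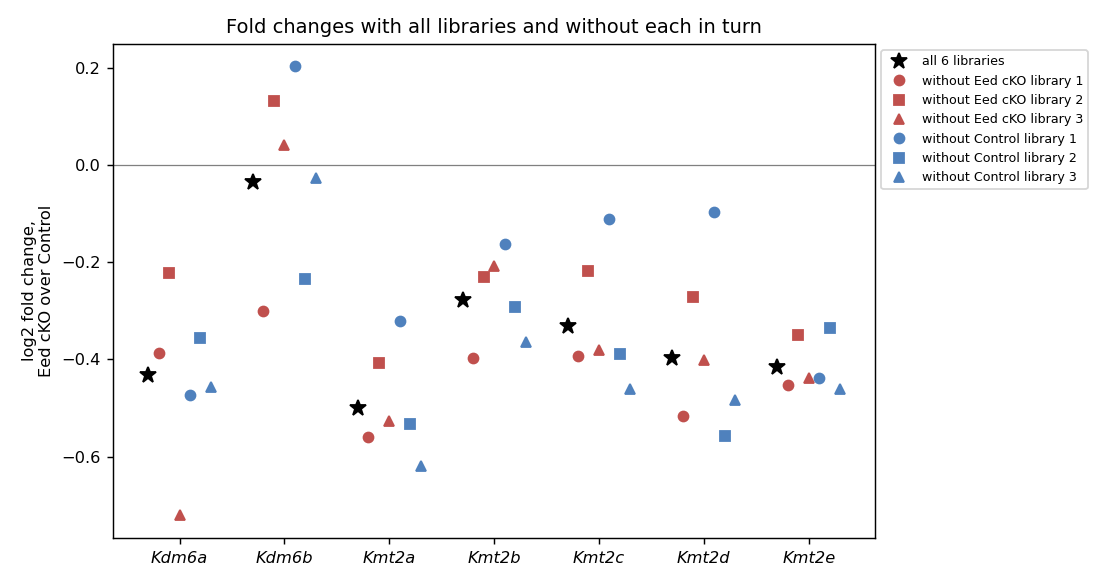
Log2 fold change (Eed cKO over Control) of each gene with all 6 libraries (star) and without each library in turn (red for an Eed cKO library left out, blue for a Control library). Kmt2e stays between -0.46 and -0.33, Kmt2d reaches -0.10 without Control library 1, and Kdm6b lies on both sides of 0.

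The 7 transcripts are long, with 6954 exonic bases in Kdm6b and up to 20291 in Kmt2c, and long genes leaned down as a class. The decile of tested genes with the most exonic bases, from 9753 up, had a median log2 fold change of -0.05 with 56.2% negative, and held Kmt2a, Kmt2c, Kmt2d and Kmt2e. Among the 609 of these with at least 100 CPM in Control, the median was -0.12, the quartiles were -0.27 and 0.04, 71.1% were negative and 22.7% had groups apart with Eed cKO lower. Choosing genes by their Control level alone can itself tilt these values down, and abundant genes of other lengths were not compared. Kmt2a, Kmt2c, Kmt2d and Kmt2e, which are among the 609, all lie below the lower quartile of that set. The longest decile took 22.4, 22.3 and 23.6% of counts in Eed cKO libraries 1, 2 and 3, against 25.6, 24.0 and 23.5% in Control libraries 1, 2 and 3, where Control library 1, the highest, is also the library with most Kmt2a, Kmt2b, Kmt2c and Kmt2d. The groups overlapped, with Eed cKO library 3 above Control library 3. These are shares of all counts, including Rn45s, which took a larger share in every Eed cKO library than in any Control library. The part of these differences in the values of the 7 genes was not tested.

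Levels can be compared between genes only per length, as CPM per kilobase of exon. On that scale Kmt2e was highest, at 48.8 ± 3.44 in Eed cKO and 65.1 ± 5.12 in Control, and its range overlapped that of no other member in either group. Kdm6a followed, with 31.1 ± 10.4 in Eed cKO and 41.9 ± 3.10 in Control CPM per kilobase. Kmt2d had 29.7 ± 4.76 in Eed cKO and 39.1 ± 13.2 in Control, and Kmt2a 26.0 ± 2.67 in Eed cKO and 36.8 ± 7.76 in Control. The ranges of Kdm6a, Kmt2d and Kmt2a overlapped in both groups. Within libraries, Kdm6a was above Kmt2d in 1 of 3 Eed cKO and 2 of 3 Control libraries. Kmt2d was above Kmt2a in 3 of 3 Eed cKO and 2 of 3 Control libraries. Kmt2a was above Kmt2c in every library, and their ranges overlapped in Control but not in Eed cKO. Kmt2c (20.1 ± 2.60 in Eed cKO and 25.3 ± 6.36 in Control) and Kdm6b (21.9 ± 6.49 in Eed cKO and 22.4 ± 7.04 in Control) overlapped and exchanged places between the groups. Kmt2b was lowest, at 12.5 ± 1.71 in Eed cKO and 15.2 ± 2.17 CPM per kilobase in Control (all SD, n = 3), and its range overlapped that of Kdm6b in Control but not in Eed cKO. Within every library Kdm6b was above Kmt2b. Per length, even Kmt2b was above 79.9% of the 14382 tested genes with a single gene model in Control, and Kmt2e above 97.3%.

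**Figure D4:**
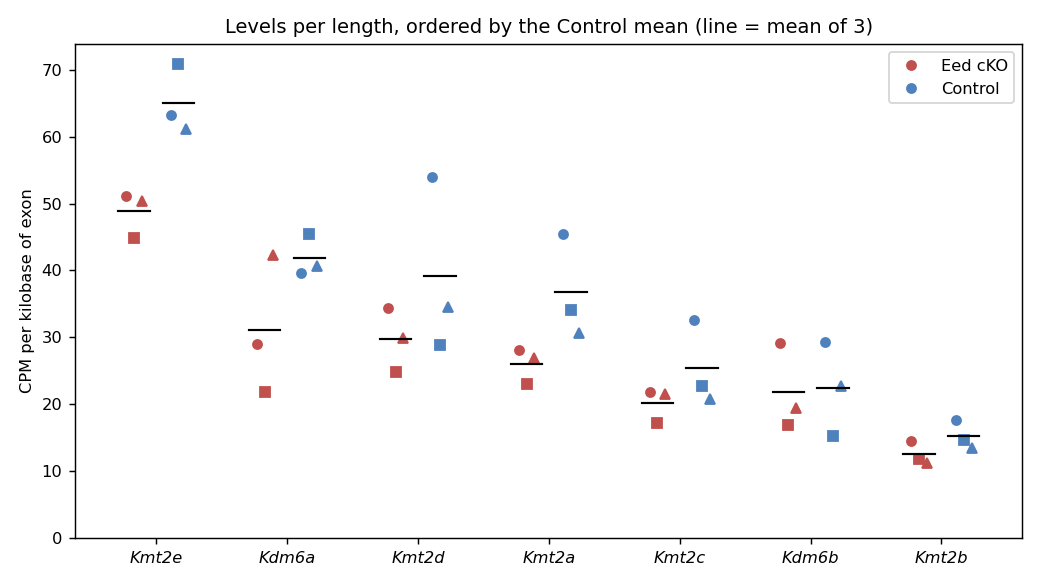
CPM per kilobase of exon in each library, with Eed cKO in red left of Control in blue, black lines for means of 3, and genes ordered by the Control mean. Kmt2e is highest (48.8 in Eed cKO and 65.1 in Control) and Kmt2b lowest (12.5 in Eed cKO and 15.2 in Control).

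As mean shares of the summed per-length level of the 5 KMT2 genes, the KMT2 genes kept the same order in both groups. The order did not hold in every library, since Kmt2a (19.9%) was above Kmt2d (16.9%) in Control library 2. Kmt2e made up 35.7 ± 1.40% in Eed cKO and 36.4 ± 6.03% in Control, and Kmt2d 21.6 ± 1.26% in Eed cKO and 21.2 ± 4.24% in Control. Kmt2a made up 19.0 ± 0.261% in Eed cKO and 20.1 ± 1.14% in Control, Kmt2c 14.7 ± 0.635% in Eed cKO and 13.8 ± 1.29% in Control, and Kmt2b 9.15 ± 0.947% in Eed cKO and 8.39 ± 0.129% in Control (all SD, n = 3). The ranges of the groups overlapped for each of the 5 genes.

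The closest companions in pattern were taken as the genes with the smallest root-mean-square difference over the 6 libraries in log2 CPM, each centred on its own mean, among 8798 genes of at least 10 CPM. This is a description of libraries that share a scaling, and genes with little variation lie close to many others. Kmt2d was closest to Arid1a (0.04), a SWI/SNF subunit gene with 645, 433 and 541 CPM in Eed cKO libraries 1, 2 and 3 and 929, 502 and 621 CPM in Control libraries 1, 2 and 3, and to Apex2 (0.06). Kmt2b was closest to Bod1l (0.04) and Nsd3 (0.05), Kmt2a to Nudt13 (0.03) and Synj1 (0.06), and Kmt2c to Fam210b (0.07) and the DNA demethylation gene Tet2 (0.07). Kdm6b was closest to Zfp385a (0.05) and the H3K4 methyltransferase gene Setd1a (0.11), whose count is uncertain since 52.3% of its exonic bases lie in other genes too, and Kmt2e to Ptprg (0.05) and Col17a1 (0.06), a basal keratinocyte collagen. Kdm6a was closest to Lipa (0.08) and Sap30l (0.11). None of these 14 genes was called, where 4.21% of all genes tested were. They were picked for closeness to members that were not called, so this is no separate result. Within the family Kmt2a and Kmt2c were closest to each other (0.10), nearer than all but 0.0455% of the other genes were to Kmt2a.

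Genes that act with or beside the 7 were followed in 7 lists of 45 genes, all tested. Of these 0 rose, 1 fell and 44 did not pass, where 3.39% of all genes tested were called higher and 0.816% lower (edgeR). DESeq2 and limma-voom each called 1 of the 45 as well. In edgeR 7 of the 45 (15.6%) had an unadjusted p under 0.05, a share close to the 14.9% over all genes tested. The 4 genes of the WRAD core shared by KMT2 complexes gave 0 calls, with log2 fold changes from -0.19 (Wdr5) to -0.02 (Rbbp5) and a median of -0.14. The 4 genes of KMT2A and KMT2B partners also gave 0 calls and a median of -0.32, with Men1, the menin gene, at 0.04. The 3 genes of KMT2C and KMT2D partners gave 0 calls and the lowest median, -0.46, with Ncoa6 at -0.43, Paxip1 at -0.46 and Pagr1a at -0.54. Pagr1a shares 98.7% of its exonic bases with other genes on the same strand, Pagr1b among them, so its count is uncertain. The 5 SETD1 complex genes, for the other main H3K4 methyltransferases, had 0 calls and a median of -0.15. That median is the value of Setd1a, whose count is uncertain, since 52.3% of its exonic bases lie in other genes too. The 5 H3K4 demethylase genes, which oppose KMT2 enzymes, had 0 calls and a median of -0.03. The 14 SWI/SNF remodeller genes had 0 calls and a median of -0.22. The median over all 45 was -0.21, with 39 negative, where 51.3% of all genes tested were negative. Among the 609 genes of the longest decile with at least 100 CPM in Control, 71.1% were negative. That set is not a matched background for the 45, since many of them are shorter or less abundant. Wdr5, for example, has 3596 exonic bases and averaged 51.5 CPM in Control.

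The single gene called was Nsd2, which encodes an H3K36 methyltransferase whose mark hinders PRC2. It was in a list of 10 other genes, mostly for H3K36 and H3K27 enzymes, of which 0 rose, 1 fell and 9 did not pass (median log2 fold change -0.29). Nsd2 had 135, 185 and 121 CPM in Eed cKO libraries 1, 2 and 3, against 262, 235 and 252 CPM in Control libraries 1, 2 and 3. The groups were apart, with means of 147 ± 33.8 CPM in Eed cKO and 249.6 ± 13.5 CPM in Control (SD, n = 3 each) and a log2 fold change of -0.76 ± 0.18 (SE; edgeR adjusted p 0.0275). The call was lost without any 1 library other than Eed cKO library 2 (edgeR adjusted p from 0.0590 without Control library 2 to 0.150 without Eed cKO library 3), while the log2 fold change stayed between -0.95 and -0.64. Whether Nsd2 differed more than the 7 members did was not tested. The acetyltransferase genes Ep300 and Crebbp, whose product marks H3K27 in place of methylation, had log2 fold changes of -0.37 and -0.33 (edgeR adjusted p 0.394 and 0.395).

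**Figure D5:**
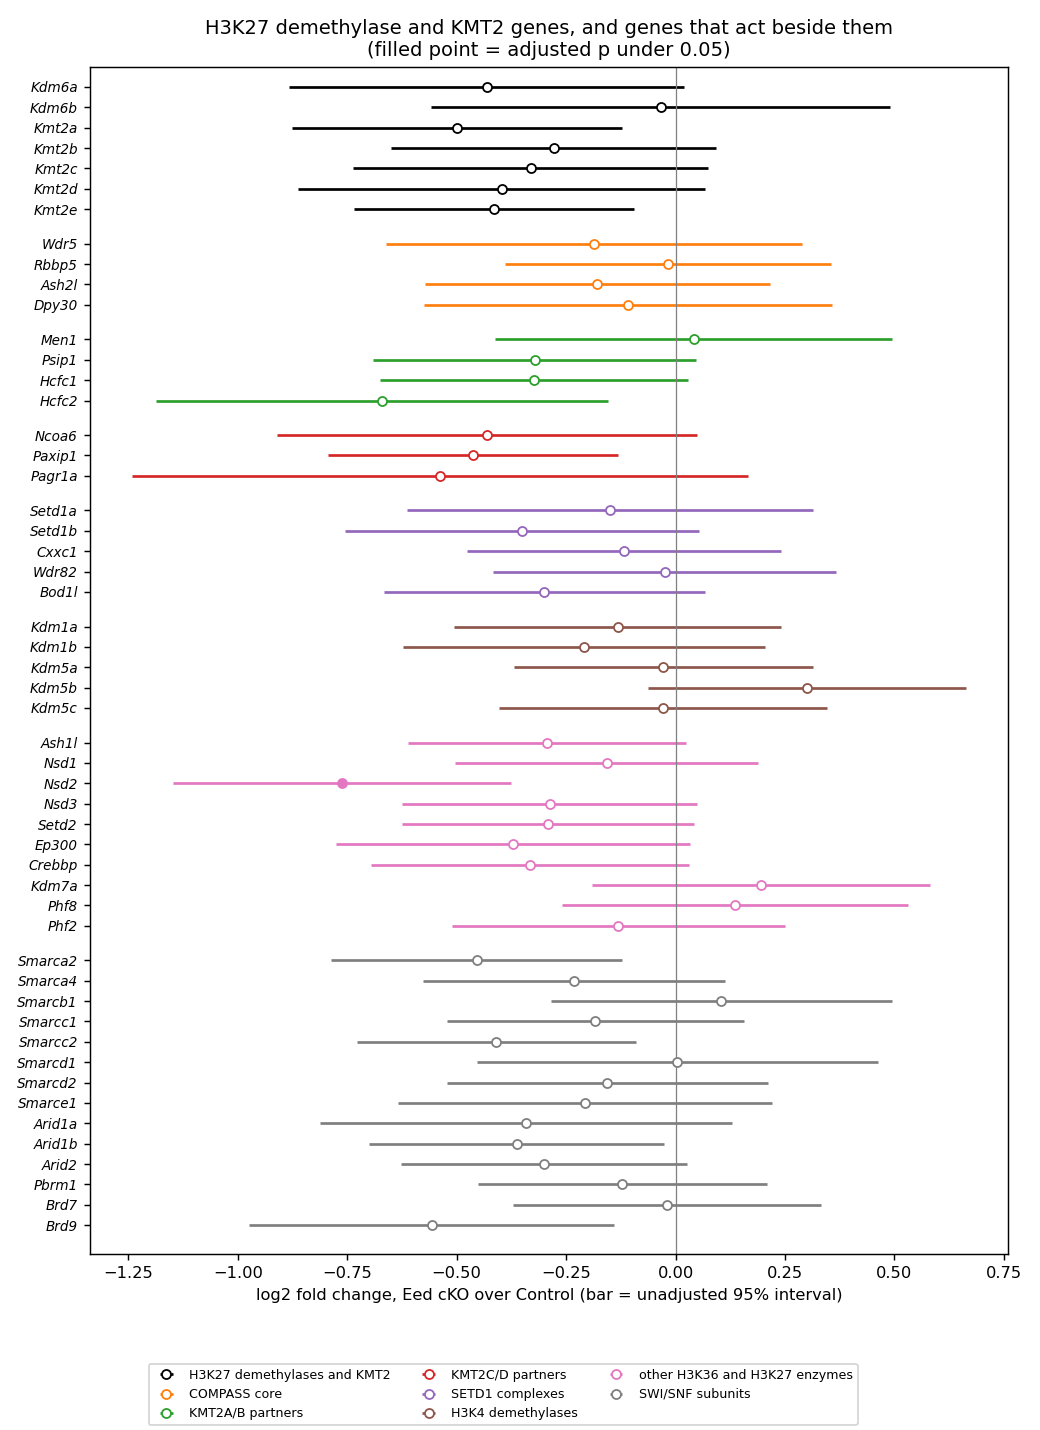
Log2 fold change (Eed cKO over Control) with its unadjusted 95% interval for the 7 genes (black) and the 45 genes of 7 lists that act with or beside them, with filled points for an adjusted p under 0.05. Nsd2 is the only filled point, at -0.76, and 46 of the 52 values lie below 0, where 51.3% of all genes tested did.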

How the data were processed

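Sorted interfollicular epidermal cells were profiled by RNA-seq, in 3 Eed cKO and 3 Control libraries, from amplified total RNA read as single ends, per the labels' protocols. The deposited values are unnormalized counts for each symbol. HTSeq 0.6.1, TopHat2 2.0.13, DESeq2 1.6.3, Cufflinks 2.2.1 and mm10 appear in the submitters' processing notes, with no step assigned to any. Annotation and strand setting of the counting: not given in the sources used here.

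The main analysis used edgeR 4.0.16 in R 4.3.3. Of 24453 symbols, filterByExpr kept 14700, libraries were scaled by TMM, and genotype alone was tested by the quasi-likelihood F-test with Benjamini-Hochberg adjustment and a threshold of 0.05. The SE is the fitted log2 fold change over the square root of F, and 95% intervals use it and are not adjusted. Alternatives were RLE and upper-quartile scaling, 2 other filters, DESeq2 1.42.0, limma-voom (limma 3.58.1), a replicate block, the log2 Xist CPM as a covariate and leaving out each library. Leaving out both libraries numbered 1, and Rn45s, were added after seeing the data. The fit was tested on simulated data.

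Exon lengths, positions and overlaps come from the M21 release of GENCODE (GRCm38, which is mm10), where 23753 symbols matched a single gene model. Named genes were the 7 members, Eed, called genes of the lists, the sex-linked genes and the 2 genes closest in pattern to each member. Srpk2, Pagr1b, Wdr5, Rbbp5, Men1, Ncoa6, Paxip1, Pagr1a, Ep300 and Crebbp were named after their values were seen. The members and lists were chosen with earlier results of these data known. Libraries of a group differed by more than sampling noise (chi-square per degree of freedom of at least 46.1), so none was taken for a repeat deposit of another. This does not show that they came from separate animals. Each member had at least 2235 counts in every library, so counting error is small beside the spread between libraries. Plots were made in matplotlib 3.10.9 under Python 3.11.15.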

Additional observations from a re-analysis of the deposited data

How the results depend on the processing

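None of the 7 members was called under any of the 16 alternatives. The log2 fold changes of Kdm6a, Kmt2a, Kmt2b, Kmt2c, Kmt2d and Kmt2e were negative under all 16, and the smallest adjusted p over these fits, edgeR or other, was 0.0756, for Kmt2a with the replicate block. Kdm6b was positive with the Xist covariate (0.13) and without Control library 1, Eed cKO library 2 or Eed cKO library 3, with values from -0.30 to 0.20 over the fits that leave out 1 library. The cause was not tested. Without 1 library the count of all genes called ranged from 302 to 456 higher and from 35 to 118 lower, against 499 and 120 with all 6. Lower genes numbered 257 without a filter on low counts, 270 in DESeq2 (764 higher), 269 with the replicate block and 53 with the Xist covariate. No label says that equal replicate numbers share an animal or batch. Deviations from the group means correlated at 0.37, 0.08 and 0.06 for libraries numbered 1, 2 and 3 across 9012 genes, so the numbers were not taken as pairs. Only Eed cKO library 1 correlated best with its own number, and 0 members were called with the block. The order of the 7 levels per kilobase in Control was the same with the longest transcript as the length. With 3 libraries a group, the exact permutation test cannot go below 0.1.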

Other observations

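The per-length ratio of Kdm6b to Kdm6a, the 2 H3K27 demethylase genes, was 1.01, 0.775 and 0.46 in Eed cKO libraries 1, 2 and 3, against 0.739, 0.334 and 0.559 in Control libraries 1, 2 and 3. The value of 0.775 rests on the low Kdm6a of Eed cKO library 2, the library with Y-linked counts and little Xist. The groups overlapped, and the library numbered 1 was the highest in both. The summed per-length level of the 5 KMT2 genes was 149.96, 122 and 139.9 CPM per kilobase in Eed cKO libraries 1, 2 and 3, against 213, 171 and 160.4 CPM per kilobase in Control libraries 1, 2 and 3. Every Eed cKO library was below every Control library. The same held for 9.22% of all single genes tested, and for 22.7% of the 609 in the longest decile with at least 100 CPM in Control. Neither share is a matched background for a sum of 5 genes. Kmt2e and Kmt2a, which were apart on their own, made up 35.7% and 19.0% of the sum in Eed cKO. In Control they made up 36.4% and 20.1%. Kmt2b, Kmt2c and Kmt2d each overlapped between the groups.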
